A study of Mus musculus with 6 samples.

Results

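The Ly6 surface protein family was followed through 7 of its genes, Ly6e, Ly6a, Ly6c1, Ly6c2, Ly6d, Ly6h and Ly6i, among 55401 gene identifiers counted in mouse lacrimal glands. The genes were chosen by their symbols and by their measured difference between the strains, Ly6e against the others, so their levels and fold changes between the strains are given as a description, without a test. Polyadenylated RNA of 3 lacrimal gland samples of ICR mice, an outbred stock labelled as the control, was compared with 3 samples of NOD/Ltj mice, an inbred strain that develops spontaneous autoimmune disease of the tear and salivary glands. The series is titled as a study of NF-κB signalling in gland damage of Sjögren's syndrome. No treatment or transgene is named in the labels, and age, sex and the number of animals behind a sample are not given in them. Whole glands were sequenced, so a change in the share of a cell type and a change in RNA per cell cannot be told apart in any value below. Differences between the strains in gene sequence or gene copies, which could alter how reads were counted, cannot be told apart from them either.

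Ly6 proteins are small extracellular proteins built on a single LU domain, a compact fold held by disulfide bridges and named after Ly6 and the urokinase receptor. Most of them hang on the outer face of the cell membrane by a glycosylphosphatidylinositol (GPI) lipid anchor, without a cytoplasmic part. Many are used as surface markers of blood cells, and several are induced by interferons. Others modulate nicotinic acetylcholine receptors. In the mouse most Ly6 genes lie side by side on chromosome 15, with Ly6d at one end, then Ly6e, Ly6i, Ly6a, Ly6c1 and Ly6c2 in this order, and Ly6h at the other end (order from the RefSeq table of GRCm38.p6).

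Members of this cluster arose by duplication and some still share stretches of sequence, which matters for how their reads were counted. Among the annotated transcripts of GENCODE mouse release 21, 32.8% of the 50-base stretches of Ly6c1 also occurred in other LU-domain genes. The share was 19.0% for Ly6a, 14.0% for Ly6c2 and 4.76% for Ly6i. No such stretch of Ly6e, Ly6d or Ly6h was shared with another LU-domain gene. Values of Ly6a, Ly6c1, Ly6c2 and Ly6i are therefore uncertain to the extent that the counting split shared reads among them. Exons of the 7 genes did not overlap those of any other annotated gene on either strand.

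A promoter, from 250 bases before to 50 bases after the start of the gene, was held for 2 of the 7 genes in the RefSeq table of GRCm38.p6, and the first entry of each is shown because Ly6c1 has the largest share of transcript sequence in common with other LU-domain genes, Ly6c2 among them. The Ly6c1 window lies at chr15:75048788-75049087 and that of Ly6c2 at chr15:75111922-75112221, both on the minus strand and both written 5′ to 3′. Lower case marks letters that are identical in a global alignment of both, and capitals mark letters that differ or stand opposite a gap.
Ly6c1: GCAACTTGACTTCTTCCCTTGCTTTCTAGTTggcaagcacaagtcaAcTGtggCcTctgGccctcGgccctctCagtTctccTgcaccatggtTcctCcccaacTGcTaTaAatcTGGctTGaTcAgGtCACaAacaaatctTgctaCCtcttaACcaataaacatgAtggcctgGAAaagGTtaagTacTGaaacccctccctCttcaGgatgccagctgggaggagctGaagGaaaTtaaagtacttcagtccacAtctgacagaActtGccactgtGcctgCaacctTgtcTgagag
Ly6c2: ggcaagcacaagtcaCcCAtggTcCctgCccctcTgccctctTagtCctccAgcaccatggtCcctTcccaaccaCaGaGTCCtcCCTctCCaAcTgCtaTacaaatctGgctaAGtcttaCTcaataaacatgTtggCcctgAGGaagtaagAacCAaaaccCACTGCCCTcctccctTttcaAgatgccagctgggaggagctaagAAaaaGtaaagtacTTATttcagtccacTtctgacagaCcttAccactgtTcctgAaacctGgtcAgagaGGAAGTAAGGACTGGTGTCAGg
Of 260 aligned letters, 214 (82.3%) were identical. The interferon-γ activated site TTCNNNGAA and the core of the interferon-stimulated response element GAAANNGAA, searched on both strands, were in none of the 4 promoter entries of these genes. They were in 8.3% and 8.6% of all 32851 promoters of this length. Both are descriptions of these windows of the reference genome only, and the sequences of ICR and NOD/Ltj mice were not examined.

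The libraries held 58426580 to 76554340 estimated counts. Levels are counts-per-million values (CPM) after library sizes were scaled by the trimmed mean of M-values (TMM). A log2 fold change sets NOD/Ltj over ICR and is given with its standard error (SE) from edgeR. ICR 1 stood apart from the other control libraries: 17 of 18 fibroblast markers and 16 of 20 monocyte and macrophage markers were highest there among the ICR libraries. ICR 3 had the highest sums of salivary gland genes (112600 CPM against 36190 and 40380) and skeletal muscle genes (206 CPM against 3.83 and 5.53). Aqp5, the water channel of acinar cells, averaged 97.4 ± 13.4 CPM in the control strain against 76.0 ± 4.01 CPM in the model strain (SD, n = 3 each). It was present in all libraries, at 82.3 to 108 CPM in ICR and 71.5 to 79.2 CPM in NOD/Ltj.

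Ly6e was the most abundant of the 7 genes in the ICR gland and was several-fold lower in the NOD/Ltj gland. Ly6e, first described as a thymic shared antigen, is known as an interferon-induced protein that alters the entry of several viruses and as the receptor of the placental fusion protein syncytin-A. It stood at 638, 461 and 178 CPM in ICR 1, 2 and 3, and at 44.7, 60.0 and 42.3 CPM in NOD 1, 2 and 3. All NOD/Ltj libraries lay below all ICR libraries, and the lowest ICR value was 2.97 times the highest NOD/Ltj value. The means were 426 ± 232 and 49.0 ± 9.62 CPM (SD, n = 3 each), a log2 fold change of −3.12 ± 0.48 (SE) or an 8.69-fold lower level. Of the 18537 genes tested, 97 had a more negative fold change. Within the ICR libraries the highest value was 3.58 times the lowest, and within NOD/Ltj 1.42 times.

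The rank of Ly6e by CPM, which takes no account of exon length, changed accordingly. Its CPM was the 69th, 97th and 214th highest among tested genes in ICR 1, 2 and 3, and the 1354th, 808th and 1328th in NOD 1, 2 and 3. With 1 library left out in turn its log2 fold change stayed between −3.49 (without ICR 3) and −2.73 (without ICR 1). The summed salivary gland markers also differed between the strains without overlap, at 36190 to 112600 CPM in ICR and 12850 to 16270 CPM in NOD/Ltj. Most of this sum was Mucl2, named after its values were seen. It stood at 39730, 34780 and 98570 CPM in ICR and 16060, 10310 and 16160 CPM in NOD/Ltj. The sum of the other 16 genes of the list overlapped between the strains. Of the 17 salivary genes 10 were tested, 9 with negative and 1 with positive fold changes. Their median was −2.21 on the log2 scale, or −0.196 without ICR 3. None was called by edgeR or limma-voom, and DESeq2 called 1 lower, with 1 lower by edgeR before adjustment (p under 0.05). Their part in the difference of Ly6e was not tested. Ly6e was lowest of the ICR libraries in ICR 3, where the salivary sum was highest.

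Ly6a, which encodes stem cell antigen Sca-1, a marker of blood stem cells, fibroblast progenitors and activated lymphocytes, did not follow Ly6e. It stood at 83.8, 16.2 and 23.9 CPM in ICR 1, 2 and 3, and at 69.7, 77.2 and 55.4 CPM in NOD 1, 2 and 3. The strains overlapped because of ICR 1, which held the highest value of all, while ICR 2 and ICR 3 lay below every NOD/Ltj library. The log2 fold change was 0.71 ± 0.57 (SE), and it was 1.74 without ICR 1. The tightly grouped NOD/Ltj values (67.4 ± 11.1 CPM) contrasted with the spread in ICR (41.3 ± 37.0 CPM, SD, n = 3 each).

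Ly6c1, which is known from endothelial cells and some T cells, stood at 51.7, 8.71 and 11.4 CPM in ICR 1, 2 and 3, and at 11.9, 9.80 and 6.79 CPM in NOD 1, 2 and 3. Only ICR 1 was high, and the other 5 libraries lay between 6.79 and 11.9 CPM. The log2 fold change of −1.33 ± 0.65 (SE) became −0.10 without ICR 1, so that library decided the value. Ly6c2, the gene behind the Ly6C surface marker of inflammatory monocytes, stood at 2.72, 6.49 and 2.67 CPM in ICR and at 2.98, 1.99 and 1.41 CPM in NOD/Ltj. The strains overlapped, ICR 2 was the high library, and the log2 fold change was −0.90 ± 0.46 (SE), or −0.34 without ICR 2.

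Both Ly6a and Ly6c1 were raised in ICR 1 beside marker lists of other cells. In ICR 1 Ly6a stood at 4.19 times and Ly6c1 at 5.15 times the mean of the other ICR libraries. The summed fibroblast markers stood at 4.75 times that mean and those of monocytes and macrophages at 3.57 times. The fibroblast sum was 4194, 862 and 906 CPM in ICR and 791, 647 and 736 CPM in NOD/Ltj. The sum of monocyte and macrophage markers was 465, 114 and 147 CPM in ICR and 242, 341 and 237 CPM in NOD/Ltj. Endothelial markers summed to 123, 90.0 and 121 CPM in ICR and 112, 139 and 111 CPM in NOD/Ltj, with 3 of 20 markers highest in ICR 1 among the ICR libraries. Pdgfra, the platelet-derived growth factor receptor of fibroblasts, was at 28.3, 17.7 and 14.6 CPM in ICR, and Csf1r, the macrophage colony-stimulating factor receptor, at 19.7, 6.90 and 7.50 CPM. The part of these cells in the ICR 1 values of Ly6a and Ly6c1 was not tested. In NOD/Ltj, Ly6a lay between 55.4 and 77.2 CPM, above ICR 2 and ICR 3. The monocyte and macrophage sum of every NOD/Ltj library also lay above those of ICR 2 and ICR 3, and the fibroblast sum lay below them. The part of these cells in the NOD/Ltj values of Ly6a was not tested either.

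**Figure D1:**
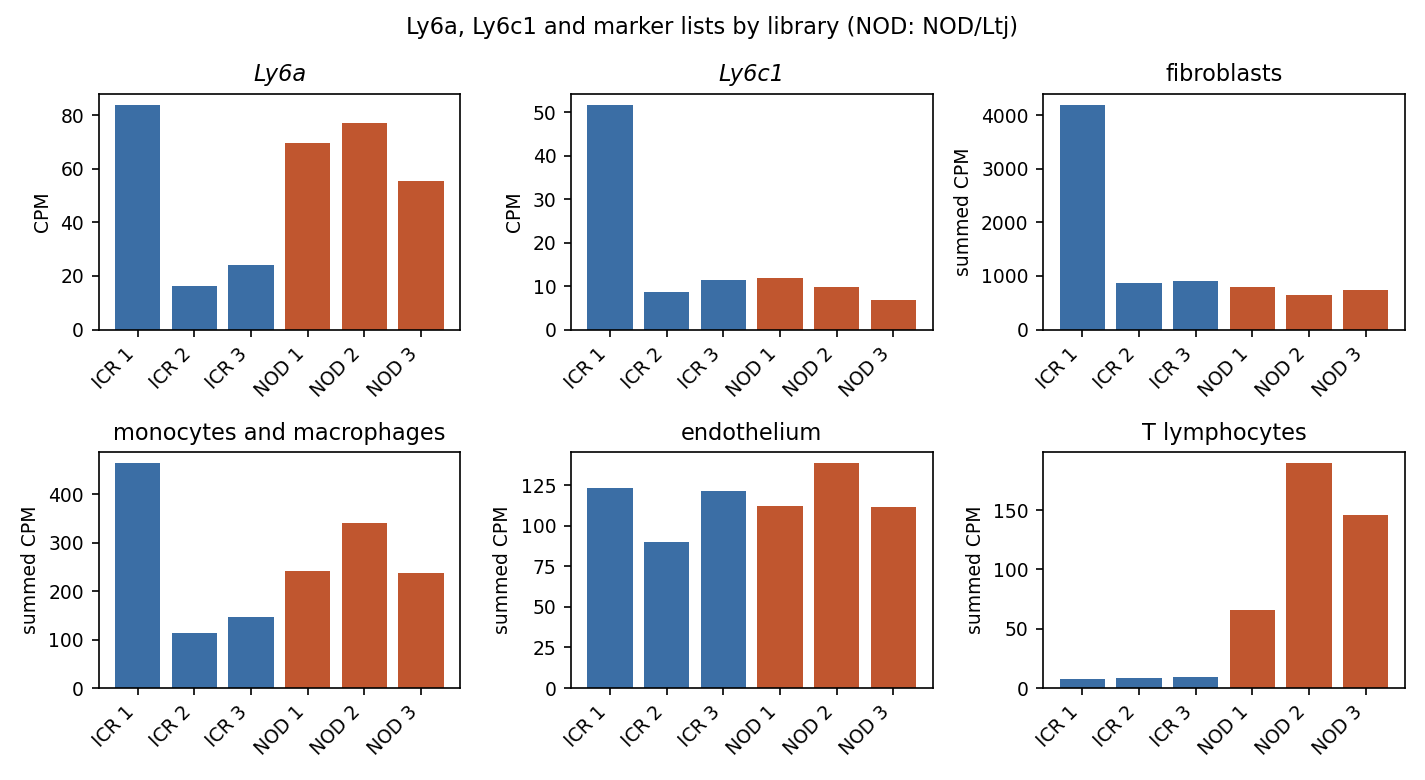
Bars give CPM of Ly6a and Ly6c1 and the summed CPM of 4 marker lists in each of the 6 libraries (blue ICR, orange NOD/Ltj). Ly6c1, fibroblast and monocyte and macrophage bars are highest in ICR 1, Ly6a is high in ICR 1 and in all NOD/Ltj libraries, and T lymphocyte markers are high in NOD/Ltj alone.

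Ly6i, a close relative of Ly6a found on bone marrow cells and macrophages, was near the detection limit in ICR and low in NOD/Ltj. Its counts were 0, 0 and 5 in ICR 1, 2 and 3 and 31, 110 and 56 in NOD 1, 2 and 3. This corresponds to 0, 0 and 0.087 CPM in ICR and 0.574, 1.37 and 0.848 CPM in NOD/Ltj, without overlap. If a fragment adds 4 counts, which the values hint at but do not establish, a count of 0 allows up to 3 fragments or 12 counts, which is 0.173 CPM in ICR 1 and 0.194 in ICR 2, below each NOD/Ltj value. The 31 to 110 counts of NOD/Ltj were 0.82 to 1.78% of the Ly6a counts in the same libraries, and the genes share sequence. In ICR 1, 2 and 3 this share was 0, 0 and 0.37%. Ly6a had 5804 counts in ICR 1, and 3764, 6197 and 3655 in NOD 1, 2 and 3. The part of shared reads in the Ly6i counts was not tested. Summing Ly6a and Ly6i gave 83.8, 16.2 and 24.0 CPM in ICR and 70.3, 78.6 and 56.2 CPM in NOD/Ltj, close to Ly6a alone.

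Ly6d, a marker of B lineage progenitors and of stratified epithelium, stood at 1.65, 1.62 and 0.524 CPM in ICR and at 0.759, 2.97 and 1.88 CPM in NOD/Ltj. The strains overlapped, with a log2 fold change of 0.57 ± 0.61 (SE). Its epithelial companions, the basal keratins Krt5 (10.4 ± 1.23 against 7.25 ± 3.20 CPM) and Krt14 (8.12 ± 2.38 against 7.96 ± 4.06 CPM, SD, n = 3 each), were not called. Ly6h, a mainly neuronal member that modulates nicotinic receptors, stood at 0.766, 1.83 and 0.664 CPM in ICR and at 0.574, 0.448 and 0.606 CPM in NOD/Ltj. The strains did not overlap, but the gap was narrow, as the lowest ICR value was 1.10 times the highest NOD/Ltj value. Its log2 fold change of −0.998 ± 0.523 (SE) was −0.40 without ICR 2. Neuronal and Schwann cell markers summed to 93.2 to 97.4 CPM in ICR and 66.5 to 78.2 CPM in NOD/Ltj, and Snap25, a synaptic vesicle fusion protein, stood at 13.1 ± 1.92 and 9.90 ± 3.04 CPM (SD, n = 3 each). Of the 17 tested members of that list none was called by edgeR, DESeq2 or limma-voom, with 3 lower at an unadjusted edgeR p under 0.05. Their part in the Ly6h values was not tested.

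**Figure D2:**
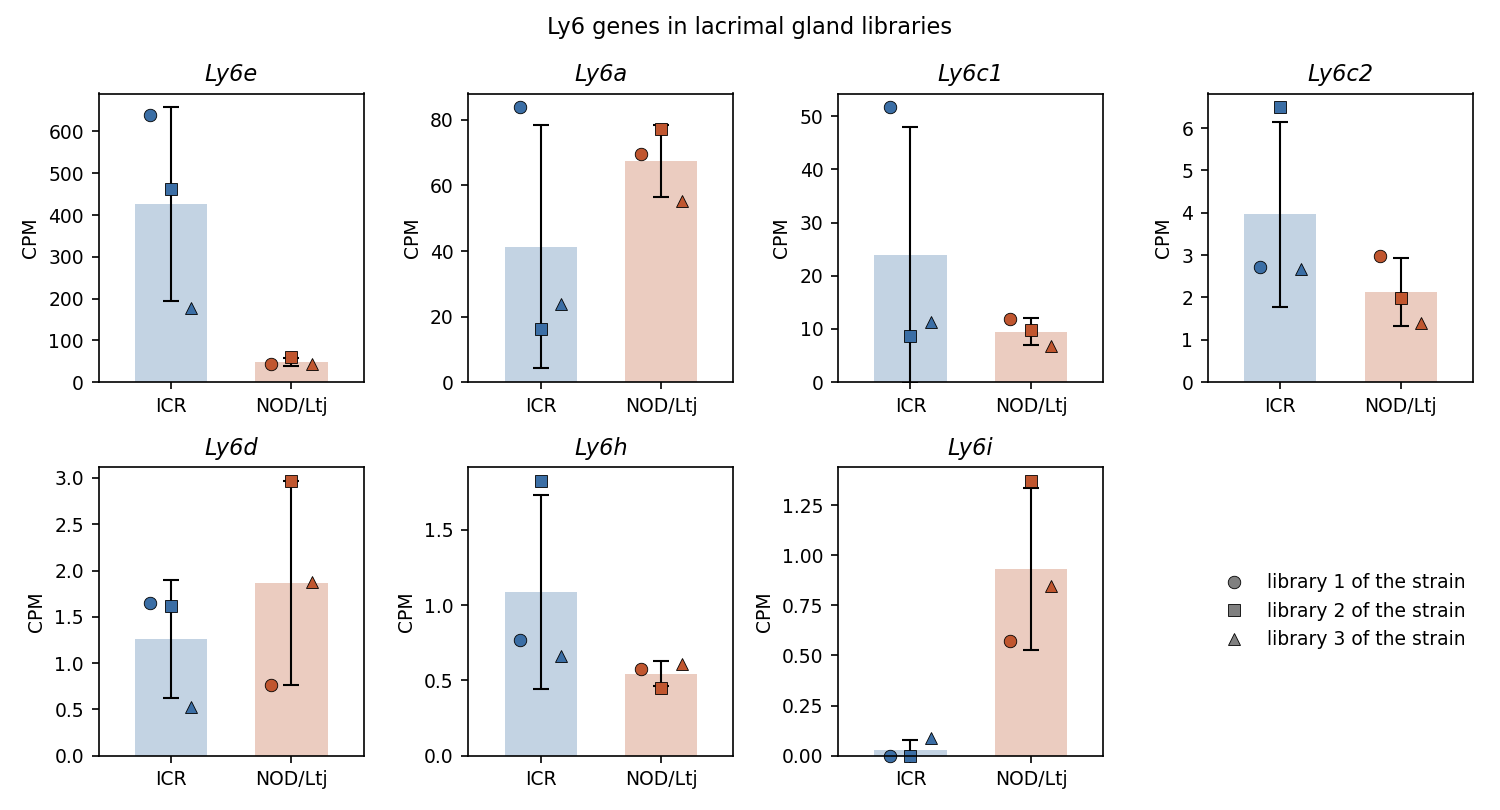
Each panel plots 1 gene, with CPM on a linear axis from 0 and its own scale; bars are strain means over 3 libraries, error bars SD, and points the single libraries; the lower ICR error bar of Ly6c1 and of Ly6i runs past 0 and is cut there. Ly6e separates the strains (178 to 638 against 42.3 to 60.0 CPM), while ICR 1 alone lifts the ICR means of Ly6a and Ly6c1.

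All 7 genes passed the filter on low counts. Of them 4 had negative and 3 positive fold changes, with a median of −0.90 on the log2 scale against −0.03 over all genes tested. In the fit over all genes 1 of the 7, Ly6e, was called lower and none higher, where 2.24% of all genes were called, 1.88% higher and 0.361% lower. The call of Ly6e ended when ICR 2, NOD 1, NOD 2 or NOD 3 was left out. In the alternatives Ly6i was called higher by DESeq2, and Ly6a was called higher by edgeR without ICR 1. Groups did not overlap for 3 of the 7 (Ly6e, Ly6h and Ly6i), as for 20.0% of all genes tested. Since the contrast was known when the genes were chosen, nothing is read from these counts.

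Levels can be compared between the genes only per exon length. In ICR, Ly6e was highest at 112.5 ± 61.3 CPM per kilobase of annotated exon, followed by Ly6a (34.3 ± 30.7) and Ly6c1 (14.3 ± 14.4, SD, n = 3 each). These neighbours overlapped in range, since Ly6e ran from 47.1 to 169, Ly6a from 13.4 to 69.6 and Ly6c1 from 5.19 to 30.8. Ly6d (0.705 to 2.21) and Ly6c2 (0.976 to 2.37) came next without separation, then Ly6h (0.157 to 0.432) and Ly6i (0 to 0.076). In NOD/Ltj the order at the top was different. Ly6a led with 46.0 to 64.1 CPM per kilobase, above Ly6e with 11.2 to 15.9 and Ly6c1 with 4.05 to 7.09, with no overlap among the 3. Ly6d (1.02 to 3.99), Ly6i (0.497 to 1.19) and Ly6c2 (0.514 to 1.09) overlapped, and Ly6h was lowest (0.106 to 0.143).

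The balance between Ly6e and Ly6a therefore turned around. Per exon length, the level of Ly6e was 2.42, 9.09 and 2.37 times that of Ly6a in ICR 1, 2 and 3, and 0.204, 0.248 and 0.243 times in NOD 1, 2 and 3. The length is that of all annotated exons together, 3784 bases for Ly6e and 1205 for Ly6a. The transcripts present may be shorter, so the size of these ratios depends on that choice. As a share of the raw counts of the 7 genes, Ly6e held 81.9, 93.0 and 82.0% in ICR and 34.1, 39.0 and 38.7% in NOD/Ltj. Ly6a held 10.8, 3.26 and 11% in ICR and 53.2, 50.2 and 50.7% in NOD/Ltj. In these within-library shares, which no scaling between libraries touches, ICR 1 lay with the other ICR libraries. The shares depend on one another, so a lower Ly6e by itself raises the share of Ly6a. By CPM, Ly6a in ICR 1 (83.8) lay above every NOD/Ltj library (55.4 to 77.2). Since the genes were chosen by Ly6e against the others, shares and ratios are a description only.

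**Figure D3:**
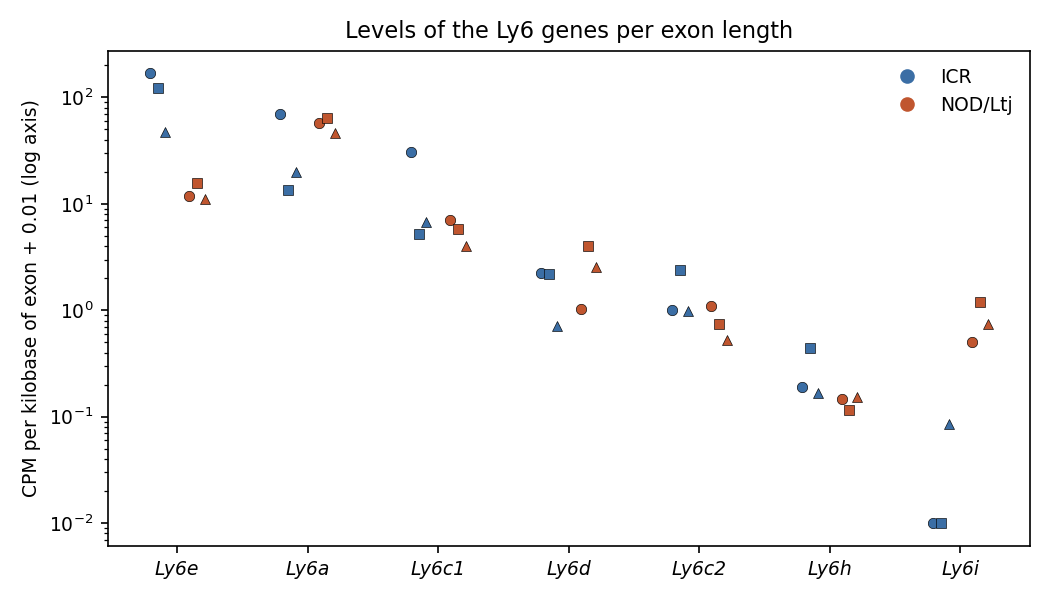
Points give CPM per kilobase of exon, plus 0.01 so that zeros can be drawn on the log axis, for each gene and library (blue ICR, orange NOD/Ltj; circles, squares and triangles for libraries 1, 2 and 3). Ly6e leads in ICR (47.1 to 169) and Ly6a in NOD/Ltj (46.0 to 64.1).

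Other genes of the LU family were examined to see whether the pattern of Ly6e extended to them. Of 53 relatives listed, 39 were matched in the count table, 16 of these had no counts in any library and 15 were tested. By edgeR's quasi-likelihood test none of the 15 was called. Before adjustment, 2 were higher and 2 lower (p under 0.05). DESeq2 called 2 higher and limma-voom none. The median log2 fold change was −0.57, against −0.03 over all genes. For comparison, edgeR had 1483 higher and 937 lower of all 18537 genes before adjustment (p under 0.05). DESeq2 called 933 higher and 279 lower of 22137 genes, and limma-voom 123 higher and 20 lower of 18537. These totals are the background for such counts in every list. Ly6f had the highest CPM of the relatives and was not called, at 15.5, 12.4 and 57.0 CPM in ICR and 53.7, 21.7 and 37.2 CPM in NOD/Ltj. Plaur, the urokinase receptor of migrating leukocytes, averaged 0.976 ± 0.411 CPM in control glands against 3.97 ± 1.66 CPM in NOD/Ltj glands (SD, n = 3 each), a log2 fold change of 2.03 ± 0.48 (SE, edgeR adjusted p = 0.0928). It was one of those called by DESeq2 (adjusted p = 0.00173). The other was Ly6g5b, at 0 to 0.065 CPM in ICR and 0.259 to 0.515 CPM in NOD/Ltj (adjusted p = 0.0447), named after its values were seen.

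The complement regulator Cd59a averaged 7.21 ± 0.75 CPM in control glands against 4.14 ± 0.59 CPM in NOD/Ltj glands (SD, n = 3 each). Its log2 fold change was −0.80 ± 0.22 (SE, edgeR adjusted p = 0.15). Lynx1, which restrains nicotinic receptors, averaged 3.98 ± 1.37 CPM in ICR against 2.68 ± 0.62 CPM in NOD/Ltj (SD, n = 3 each). The major histocompatibility complex relatives Ly6g6d (6.28 ± 3.55 and 3.46 ± 1.12 CPM) and Ly6g6e (7.09 ± 3.81 and 4.93 ± 1.28 CPM, SD, n = 3 each) overlapped between the strains. 9530003J23Rik, listed with the family, stood at 4.48 ± 2.32 and 5.53 ± 4.19 CPM (SD, n = 3 each). Ly6g, the neutrophil antigen, had 9 counts in NOD 1 and 0 in the other libraries, and S100a8, an abundant neutrophil transcript, was at most 0.289 CPM in any library.

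**Figure D4:**
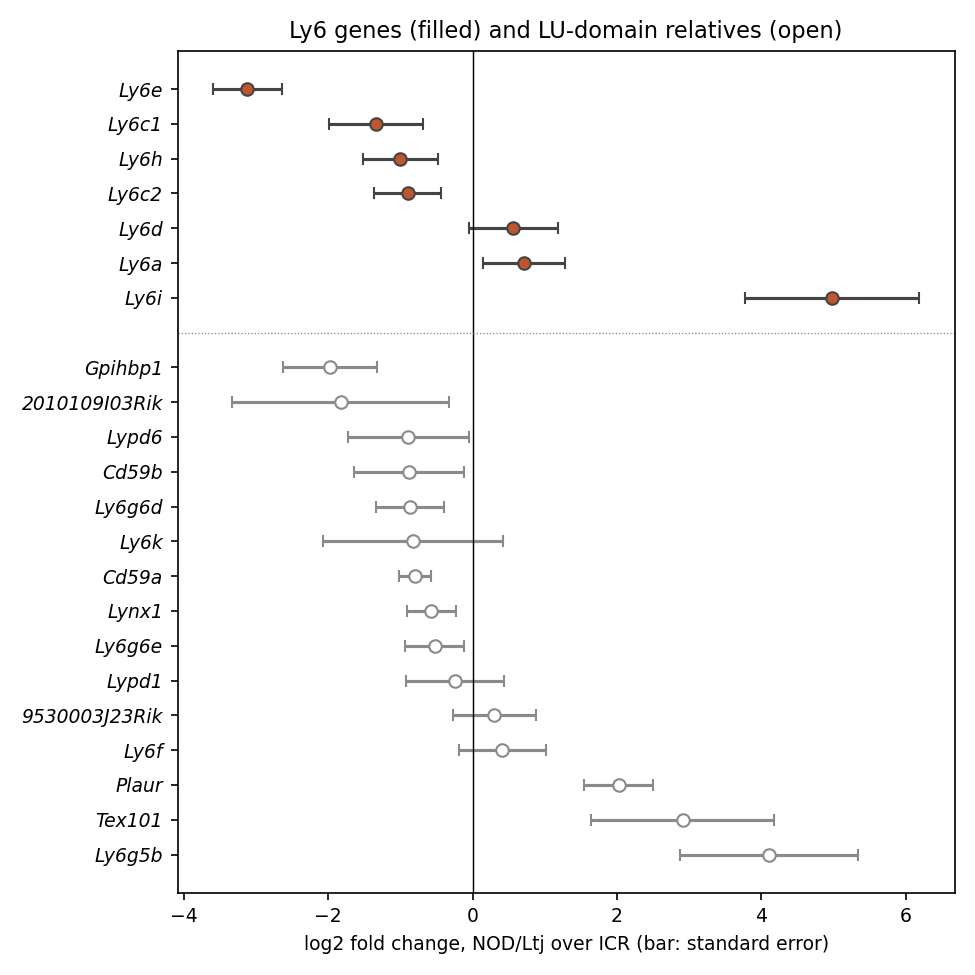
Points give log2 fold changes of NOD/Ltj over ICR with standard errors for the 7 Ly6 genes (filled) and the 15 tested LU-domain relatives (open). Ly6e lies at −3.12 and Ly6i at 4.98, and none of the open points was called by edgeR.

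Genes beside the Ly6 cluster on chromosome 15 were examined in the same fit. Of 30 neighbours listed, 27 were matched and 18 tested, Lynx1 and Gpihbp1 among them, which are LU genes counted above. Neither edgeR nor limma-voom called any, and DESeq2 called 1 higher. Before adjustment, edgeR had 2 higher and 2 lower (p under 0.05). Their median log2 fold change was 0.07. The neighbour called by DESeq2 was Gsdmd, the pore-forming protein of pyroptosis, at 8.45, 3.23 and 3.13 CPM in ICR and 8.11, 19.0 and 15.8 CPM in NOD/Ltj. Its edgeR adjusted p was 0.212 with all libraries and 0.0391 without ICR 1. Gsdmd was named after its values were seen.

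Ly6e and Ly6a are known interferon-induced genes, so the interferon responses were set beside them. Of 25 tested interferon-γ response genes 16 rose and none fell, with a median log2 fold change of 2.56. By limma-voom 12 of these genes were called, and by DESeq2 22. The chemokine Cxcl9 rose from 0.514 ± 0.102 to 19.4 ± 4.65 CPM (SD, n = 3 each, edgeR adjusted p = 0.00139). Tgtp2 and Cxcl10 rose by 3.88 and 3.38 and Nlrc5, the activator of class I genes, by 3.40 on the log2 scale. Of 30 type I interferon-stimulated genes 4 rose, Mx1, Zbp1 and Rsad2 among them, and none fell, and all 30 had positive fold changes with a median of 1.27. DESeq2 called 11 of the 30 and limma-voom 3. Ly6e had a negative fold change where every tested gene of both lists had a positive one. The difference between Ly6e and the lists was not tested. Calls in the interferon-γ list numbered 10 when ICR 2 was left out, 9 for ICR 3, 6 for NOD 2 and 3 for NOD 3. Calls in the type I list numbered 9 when ICR 1 was left out, 2 for ICR 2, for ICR 3 and for NOD 1, 1 for NOD 2 and 0 for NOD 3. Mx1 lost its call without NOD 2 or NOD 3, and Zbp1 and Rsad2 lost theirs in every reduced fit other than that without ICR 1. Cxcl10 lost its call without NOD 3 (adjusted p = 0.0649) and Nlrc5 without NOD 2 or NOD 3 (0.0634 to 0.0751).

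Cells known to carry Ly6 proteins were described by marker lists. Of 20 T lymphocyte markers 13 rose and of 18 B lymphocyte markers 16 rose, with median log2 fold changes of 4.27 and 5.70. DESeq2 called 19 and 17 of them, and limma-voom 2 and 5. Among the genes called by edgeR, the T cell genes with the largest changes were Cd5, Trbc2, Cd3g and Cd3e (7.41, 4.99, 4.78 and 4.42 on the log2 scale), and the called B cell genes included Fcer2a, Ms4a1 and Pax5 (7.75, 6.71 and 6.37). None of these 7 was called by limma-voom. In ICR the means of Cd3e, part of the T cell receptor, and Ms4a1, a B cell surface protein, were 0.339 and 0.307 CPM. The T cell markers summed to 7.71 to 9.72 CPM in ICR and to 65.4, 190 and 146 CPM in NOD 1, 2 and 3. Ly6a was 69.7, 77.2 and 55.4 CPM in these NOD/Ltj libraries. NOD 2 had the highest T cell sum and the highest Ly6a of them, NOD 1 the lowest T cell sum and NOD 3 the lowest Ly6a. The part of T cells in the Ly6a values was not tested. None of the 13 plasma cell, 20 endothelial or 17 fibroblast markers tested was called by edgeR. DESeq2 called 2 endothelial genes higher and 1 lower and none of the other lists, and limma-voom none in the 3 lists. Before adjustment (p under 0.05) edgeR had 1 plasma cell marker higher, 2 endothelial markers higher and 2 lower, and 10 fibroblast markers lower. Of the 20 endothelial fold changes 11 were positive and 9 negative, with a median of 0.08 on the log2 scale. The endothelial marker Pecam1 averaged 6.36 ± 2.23 CPM in control glands against 17.3 ± 6.88 CPM in NOD/Ltj glands, and Cdh5, the cadherin of endothelial junctions, 2.42 ± 0.34 and 3.50 ± 0.40 CPM (SD, n = 3 each). Flt1 (5.13 ± 0.81 and 3.48 ± 0.22 CPM) and Tek (8.77 ± 9.65 and 2.08 ± 0.21 CPM) went the other way. Both were named after their values were seen. Ccr2, the chemokine receptor of the monocytes that carry Ly6C, stood at 5.91 ± 1.95 and 11.1 ± 2.07 CPM (SD, n = 3 each, edgeR adjusted p = 0.213). Of 19 monocyte and macrophage genes tested 1 rose and none fell by edgeR, none was called without ICR 2, NOD 2 or NOD 3, and 6 were called without ICR 1. Calls in the T cell list numbered 4 when ICR 2 was left out, 5 for ICR 3, 3 for NOD 2 and 0 for NOD 3. Those in the B cell list numbered 9 for ICR 2, 10 for NOD 2 and 0 for NOD 3. Of 15 lacrimal acinar genes Prol1 fell (log2 fold change −4.95), a call that ended without ICR 3 or any 1 of the NOD/Ltj libraries (0.0551 to 0.113). None of the 10 stratified epithelial, 15 ductal, 9 skeletal muscle and 7 neutrophil genes tested was called by edgeR, DESeq2 or limma-voom. By edgeR before adjustment (p under 0.05), 1 epithelial gene was higher, and 2 ductal, 2 muscle and 1 neutrophil gene were lower.

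The list of GPI anchor genes held a single call, in a gene that cleaves anchors, and the other 28 tested genes were not called. Of the 29 tested genes of this list 1 rose and none fell, with a median log2 fold change of 0.06. The gene that rose was Gpld1, a phospholipase that cleaves GPI anchors, at 8.90, 7.87 and 5.80 CPM in ICR and 25.6, 20.2 and 19.7 CPM in NOD/Ltj. Its log2 fold change was 1.54 ± 0.22 (SE, edgeR adjusted p = 0.0165). Leaving out any of ICR 2, ICR 3, NOD 2 and NOD 3 ended this call (0.055 to 0.089). Among 36 other GPI-anchored surface proteins 1 rose and 1 fell, with a median of −0.28. Cd52, an abundant lymphocyte antigen, rose from 2.74 ± 0.99 to 29.6 ± 14.4 CPM, and Folr1, a folate receptor of epithelia, fell from 4.13 ± 1.64 to 0.909 ± 0.294 CPM (SD, n = 3 each, edgeR adjusted p = 0.0142 and 0.0454). The same 4 omissions ended the call of Cd52 (0.055 to 0.0812). Folr1 was called in none of the 6 fits with a library left out (0.0563 to 0.209). Thy1, a GPI-anchored protein of T cells, fibroblasts and nerve, stood at 11.7 ± 2.04 and 13.2 ± 2.04 CPM (SD, n = 3 each).

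Ly6e was also described as a retinoic acid-induced gene, and Ly6 proteins bind nicotinic receptors. Of 22 tested genes of retinoic acid signalling 1 fell, Crabp1, a cytoplasmic retinoic acid carrier (log2 fold change −2.31 ± 0.41 SE, edgeR adjusted p = 0.0343), and the median was −0.65. With a library left out it was called when that library was ICR 1, and in none of the other 5 fits (0.0882 to 0.15). Nicotinic receptor subunits summed to 4.55 to 8.23 CPM in ICR and 5.06 to 6.70 in NOD/Ltj. Of 16 subunits 4 were tested and none was called by edgeR, DESeq2 or limma-voom or had an unadjusted p under 0.05.

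Among 9371 tested genes that averaged 5 CPM or more in either strain, the 5 whose log2 CPM ran most like that of Ly6e over the 6 libraries were Ctsl, Glo1, Pja2, Ticam1 and Adam15, with Pearson's r of 0.997 for Ctsl, 0.995 for Glo1, 0.993 for Pja2, 0.992 for Ticam1 and 0.988 for Adam15. These points share their libraries and the strain difference, so r is a description. Ctsl, the lysosomal protease cathepsin L, stood at 213, 209 and 139 CPM in ICR and at 83.7, 94.9 and 82.6 CPM in NOD/Ltj. Glo1, the glyoxalase that detoxifies methylglyoxal, stood at 63.3, 50.7 and 34.9 CPM and at 14.1, 15.7 and 14.3 CPM. Each had the order ICR 1, ICR 2, ICR 3 from high to low and the NOD/Ltj libraries below. With the mean of each strain subtracted, the 5 closest were Tusc3, Tspan13, Eef1a1, Ostc and Eif3e (r = 0.998, 0.997, 0.996, 0.996 and 0.996). Among them Eef1a1, the translation elongation factor, ran from 1415 (ICR 3) to 2911 CPM (ICR 1) in ICR. Of the other Ly6 genes, Ly6h had r = 0.70, Ly6c2 0.65, Ly6c1 0.62, Ly6d −0.03, Ly6a −0.39 and Ly6i −0.97 with Ly6e over the 6 libraries.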

How the data were processed

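RNA of 3 ICR and 3 NOD/Ltj lacrimal gland samples was sequenced as polyadenylated, dUTP-stranded, paired-end libraries, per the labels' protocols. The deposited table holds estimated counts per gene, whole numbers not scaled between libraries, so nothing was rounded. Per the submitters' processing notes the tools were fastp, StringTie and edgeR, with no version or role. For aligner, build, annotation and strand setting the sources used here give nothing. The titles of the NOD/Ltj samples read MOD, and their genotype field gave the group. Between 30.4 and 31.7% of values from 1 to 40 were multiples of 4 (25% without steps), so a fragment may add about 4 counts, which is assumed for the floors of Ly6i and not established. The labels name no molecular identifiers, so floors cover counting error only.

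Symbols of GENCODE mouse release 21 matched 55141 of 55401 identifiers, all 7 Ly6 genes included. The test was planned for the deposited counts: edgeR 4.0.16 in R 4.3.3, quasi-likelihood, TMM factors 0.809 to 1.26, filterByExpr, two-sided, Benjamini-Hochberg over 18537 genes, called at an adjusted p under 0.05. The standard error is the absolute log2 fold change over the square root of F. The test was checked on simulated counts with the same dispersion for all genes and no deviant library. That check does not cover libraries that stand apart, as ICR 1 does here. The labels do not say that samples are separate animals, so p-values reflect only the spread among these samples, which may be technical. No 2 libraries agreed within sampling noise. Gene lists covered LU relatives, cluster neighbours, GPI anchoring, interferon, retinoic acid, nicotinic receptors and cell markers. The members and lists were chosen with earlier results of these data known. Named were all members, relatives called or at 1 CPM or more in a strain, at most 4 called genes per list (some are not reported here), set markers, and the 5 genes most like Ly6e (r on log2 CPM with a prior count of 2). Alternatives were RLE size factors, DESeq2 1.42.0, limma-voom (limma 3.58.1), no filter on low counts, a stricter one, a replicate block, counts divided by 4, summed relatives and each library left out.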

Additional observations from a re-analysis of the deposited data

How the results depend on the processing

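The 7 Ly6 genes kept the sign of their fold change in every alternative that could be run. With 1 library left out the log2 fold change ran from −3.49 to −2.73 for Ly6e, 0.32 to 1.74 for Ly6a, −1.73 to −0.10 for Ly6c1, −1.22 to −0.34 for Ly6c2, 0.05 to 0.94 for Ly6d, −1.25 to −0.40 for Ly6h and 4.38 to 8.95 for Ly6i. The genes called numbered 416 by edgeR, 1212 by DESeq2, 143 by limma-voom and 13 to 524 with 1 library left out, 13 of these without NOD 3. Those in the pathway and marker lists numbered 55, 25 by limma-voom and 3 to 70 with 1 library left out. LU relatives called were 0, 2 by DESeq2 and 0 with any library left out. Neighbours called were 0, 1 by DESeq2 and 0 to 1 with a library left out. The same replicate numbers did not pair the samples, as deviations from the strain means correlated at −0.12, −0.149 and 0.072. With the replicate block Ly6e had a log2 fold change of −2.95 and was not called, 154 genes were called in all and 34 in the lists. Ly6i could not be fitted under the stricter filter or with counts divided by 4, nor Ly6h under the stricter filter.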
